A study of Mus musculus with 6 samples.

Results

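Transcripts of 10 genes that carry iron into, within and out of cells were followed in mouse hearts after endotoxin, among 22815 genes that the arrays name. The genes were Tfrc, Trf, Fth1, Ftl1, Slc40a1, Slc11a2, Hamp, Cp, Ireb2 and Slc25a37, and they were chosen for their role in iron handling. Each probe whose transcript accession belongs to one of them was taken, which gave 21 probes, with 1 probe for 4 of the genes and several for the other 6. In all, 9 genes and 19 probes could be tested, since the scanner marked them as well above background in every array of the saline group, the rhTM group or both. Hamp was the gene that could not.

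The hearts came from male C57BL6 mice aged 10 weeks that had been starved for 16 h and given 20 mg/kg of lipopolysaccharide (LPS), the bacterial endotoxin, into the peritoneum. The saline group held 3 mice that received saline at 3 and 24 h, and the rhTM group held 3 mice that received recombinant human thrombomodulin, here rhTM, at the same times. Thrombomodulin is the cofactor on endothelial cells with which thrombin activates protein C. All hearts were taken at 30 h. Starvation and LPS were common to both groups, so all differences are between endotoxin-treated hearts, and no untreated heart was analysed here. The tissue is labelled as heart with no chamber named, RNA was total RNA, and each array carried the Cy3-labelled cRNA of 1 mouse. The labels name 6 separate mice.

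Iron circulates bound to transferrin and enters cells when the transferrin receptor carries it into endosomes, from which it is released to the cytosol. There it is used, stored inside ferritin shells, passed to mitochondria for heme and iron-sulfur clusters, or exported by ferroportin, which works with the ferroxidase ceruloplasmin. Iron regulatory proteins bind iron-responsive elements in several of these mRNAs, and hepcidin, a peptide hormone raised by inflammation, removes ferroportin from the cell surface.

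Levels are given as log2 signal, set so that 0 is the 75th percentile of the signals on that array, and a step of 1 is a doubling. They are not comparable between probes. A difference is the rhTM mean minus the saline mean with its SE from limma, and p-values carry the Benjamini-Hochberg adjustment over the 14701 genes or 30322 probes tested. Between 54.8% and 62.8% of an array's spots exceeded background clearly, and none was saturated. Saline 1 and 2 were hybridised on slide 1 (scan 1), while saline 3 shared slide 2 (scan 2) with all rhTM arrays. The difference with the slide as a block therefore rests on saline 3 alone as the control, and it is given beside the results. The 17 cardiomyocyte markers were all tested, and their summed signal was 2587 to 3958 times the 75th percentile in the saline arrays and 3735 to 5402 times in the rhTM arrays. In bulk tissue, fewer cells of a type and less RNA per cell cannot be told apart.

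Most of the iron genes had levels in the rhTM hearts that overlapped those in the saline hearts. Cp, which encodes ceruloplasmin, had the largest difference of the 9 tested genes and was lower in all 3 rhTM arrays than in any saline array. By limma with adjustment over all genes, 0 of 9 genes passed at an adjusted p under 0.05, where 5.17% of all tested genes did (2.75% higher and 2.41% lower with rhTM). At an unadjusted p under 0.05, 1 of 9 passed, which was Cp, against 30.7% of all tested genes. The groups of arrays did not overlap for 1 of 9 genes, again Cp, against 35.7% of all tested genes. The difference was above 0 for 3 genes and below 0 for 6, with a median of -0.12 against 0.01 over all tested genes. For 8 of the 9 genes it was smaller in size than 0.46, the median size over all tested genes.

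With the slide as a block, limma again called 0 of 9 iron genes, where 5.78% of all tested genes were called, and the median of the 9 differences was -0.16. With the mouse number of the labels as a block, 0 of 9 were called, where 4.07% of all tested genes were. Counts over all genes moved strongly with single arrays. Without rhTM 1, 0 genes were called by limma, although 1271 were higher and 1314 lower at an unadjusted p under 0.05, and without saline 3, 3007 were called higher and 2808 lower.

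**Figure D1:**
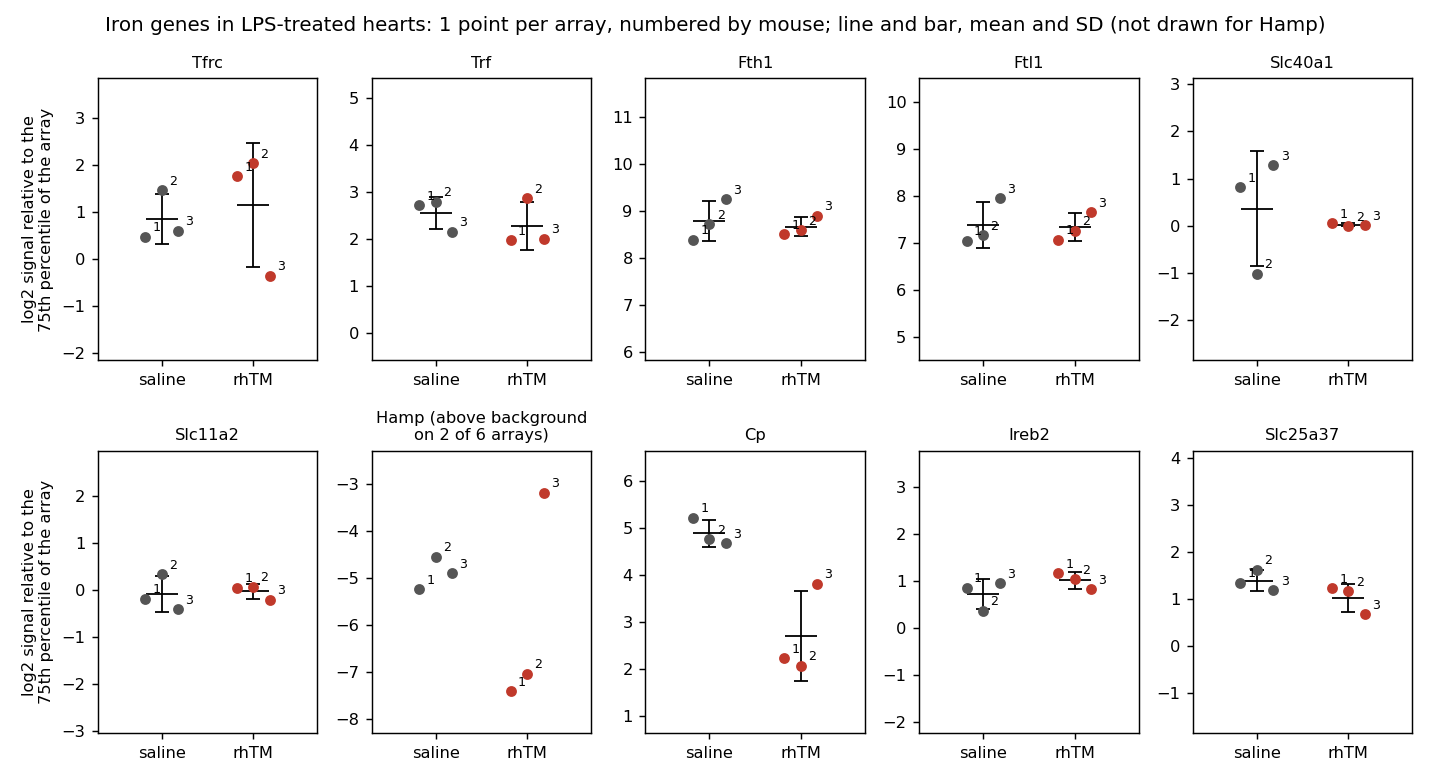
Log2 signal relative to the 75th percentile of the array (vertical axis) for the main probe of each of the 10 iron genes in the saline and rhTM hearts, with 1 point per array numbered by mouse and line and bar for mean and SD, which are not drawn for Hamp. The rhTM points of Cp lie at 2.22, 2.06 and 3.80, all below the saline points at 4.67 to 5.21, while the points of the other tested genes overlap between groups.

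Trf encodes transferrin, the iron carrier of plasma. Its main probe (NM_133977) read 2.73, 2.79 and 2.16 in the saline arrays, in the order of mice 1, 2 and 3, and 1.98, 2.87 and 2.01 in the rhTM arrays, in the same order. The ranges overlapped, with rhTM 2 the highest array of all. The difference was -0.28 ± 0.32 (limma adjusted p = 0.571, 95% interval -1.04 to 0.49), and with the slide as a block it turned to 0.12. The other Trf probe read 1.41, 1.45 and 0.45 in the saline arrays and 0.21, 1.14 and 0.34 in the rhTM arrays. On that probe saline 1 and 2 stood above the rest and saline 3 lay among the rhTM arrays.

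Tfrc encodes the transferrin receptor, which takes up transferrin-bound iron. Its main probe (NM_011638) read 0.49, 1.47 and 0.61 in the saline arrays and 1.77, 2.05 and -0.35 in the rhTM arrays. In rhTM 1 and 2 it was above every saline array, and in rhTM 3 it was below every one. The mean was 0.85 ± 0.54 (SD, n = 3) with saline and 1.16 ± 1.31 (SD, n = 3) with rhTM. The difference was 0.30 ± 0.66 (limma adjusted p = 0.776, 95% interval -1.27 to 1.87). It became 1.05 without rhTM 3 and -0.15 without rhTM 2, and the sign also turned without rhTM 1. It was 0.55 ± 1.00 with the slide as a block.

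The other Tfrc probe read -2.30, -1.04 and -1.19 in the saline arrays and 0.45, 0.67 and -1.83 in the rhTM arrays. On both probes rhTM 1 and 2 were the highest arrays, and on this one rhTM 3 lay below saline 2 and 3 and above saline 1. On this probe the difference was 1.27 ± 0.71 (limma adjusted p = 0.268 over all probes) and 0.95 with the slide as a block. Developing red cells also carry much transferrin receptor, and the summed signal of 17 erythroid markers with a probe was 341, 665 and 799 in the saline arrays and 653, 669 and 228 in the rhTM arrays. The lowest of these sums was in rhTM 3, where the main Tfrc probe was lowest as well. The highest was in saline 3, where Tfrc read 0.61 on the main probe and -1.19 on the other. Without the hemoglobin gene Hba-a1, the brightest of the list, the sum was 182, 352 and 437 in the saline arrays. In the rhTM arrays it was then 374, 375 and 128. Of that list, Epb42, Rhag, Kel and Trim10 were well above background on no array. The part of such cells in the Tfrc values was not tested.

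The Tfrc promoter is shown because, of the tested genes, its main probe had the largest SD within a group. RefSeq's table of assembly GRCm38.p6 places the stretch at chr16:32608799-32608898 on the plus strand, from 97 bases before a Tfrc start to 3 bases past it. Capitals mark a GGCGCC that begins 89 bases before the start and an ACGTG that spans the start.
Tfrc: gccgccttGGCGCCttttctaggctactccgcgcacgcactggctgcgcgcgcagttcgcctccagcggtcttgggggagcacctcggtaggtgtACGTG
GGCGCC, the core of a BMP response element, was searched on both strands of the 250 bases before each start and occurred in 9.59% of 32851 promoter windows. ACGTG, the core of a hypoxia response element, occurred in 16.6% of them. The ACGTG shown is not wholly before this start, so it did not count in this window. It counted in the window of another Tfrc start, 228 bases before that start. Windows were found for 6 of the 10 iron genes. Such a match describes the letters only.

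Slc11a2 encodes the divalent metal transporter DMT1, which moves iron out of the endosome. Its main probe (NM_008732) read -0.19, 0.32 and -0.42 in the saline arrays and 0.04, 0.06 and -0.22 in the rhTM arrays. All rhTM values lay inside the saline range. The difference was 0.06 ± 0.24 (limma adjusted p = 0.893, 95% interval -0.53 to 0.64), 0.38 with the slide as a block and -0.11 without saline 3.

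A probe for another Slc11a2 transcript (NM_001146161) gave a different picture. It read -0.09, -0.13 and -1.02 in the saline arrays and -1.79, -1.74 and -1.82 in the rhTM arrays. The groups did not overlap, and the rhTM arrays differed by no more than 0.08 among themselves. The difference was -1.37 ± 0.29 with an unadjusted p of 0.0024 and an adjusted p of 0.0548 (limma over all probes), so it missed the threshold. With the slide as a block it was -0.77 ± 0.18 (limma adjusted p = 0.0702 over all probes). The remaining Slc11a2 probes, both for NM_008732, gave differences of -0.03 and -0.09. With all probes of the gene averaged the difference turned to -0.36. A test of the difference between the probes was not run.

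Slc25a37 encodes mitoferrin, the carrier that brings iron into mitochondria. Its main probe (NM_026331) read 1.34, 1.62 and 1.18 in the saline arrays and 1.23, 1.16 and 0.67 in the rhTM arrays. Only rhTM 3 stood clearly below the saline arrays. The difference was -0.36 ± 0.23 (limma adjusted p = 0.319, 95% interval -0.92 to 0.20) and -0.16 with the slide as a block. It was -0.19 without rhTM 3 and -0.24 without saline 2. A dimmer probe, well above background on 1 saline and 3 rhTM arrays, gave 0.43 ± 0.32 (limma adjusted p = 0.396 over all probes), and a further one was above background on 1 array and was not tested.

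Fth1 encodes the ferritin heavy chain, which oxidises iron for storage. It read 8.40, 8.72 and 9.26 in the saline arrays and 8.51, 8.60 and 8.90 in the rhTM arrays (NM_010239). The rhTM values lay within the saline range, and saline 3 was the highest. The difference was -0.12 ± 0.27 (limma adjusted p = 0.780, 95% interval -0.76 to 0.52), and against saline 3 alone, with the slide as a block, it was -0.58 ± 0.24 (limma adjusted p = 0.174). Without saline 3 it turned to 0.11.

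Ftl1 encodes the ferritin light chain, which helps form the iron core. Its main probe (NM_010240) read 7.05, 7.17 and 7.95 in the saline arrays and 7.08, 7.26 and 7.66 in the rhTM arrays. On both ferritin genes saline 3 was the highest array, and rhTM 3 the highest of its group. For Ftl1 the difference was -0.06 ± 0.30 (limma adjusted p = 0.907, 95% interval -0.79 to 0.67) and -0.62 ± 0.27 with the slide as a block (limma adjusted p = 0.182). It was 0.22 without saline 3 and 0.07 without rhTM 1.

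The other Ftl1 probe read 4.23, 4.36 and 4.46 in the saline arrays and 3.60, 3.96 and 4.12 in the rhTM arrays. Its groups did not overlap, and the difference was -0.46 ± 0.22 (limma adjusted p = 0.209 over all probes) and -0.57 with the slide as a block. Ferritin genes have many processed copies in the genome, and whether these probes detect such copies was not tested.

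Slc40a1 encodes ferroportin, the exporter of iron from cells. It read 0.82, -1.02 and 1.28 in the saline arrays and 0.05, -0.01 and 0.01 in the rhTM arrays (NM_016917). The saline hearts were spread over 2.30 log2 units with saline 2 far below the others, and the rhTM hearts lay within 0.07 of each other inside that range. The difference was -0.34 ± 0.57 (limma adjusted p = 0.706, 95% interval -1.71 to 1.02). It was -1.03 without saline 2, 0.12 without saline 3 and -0.11 without saline 1. With the slide as a block it was -1.26 ± 0.67 (limma adjusted p = 0.255). Macrophages are rich in ferroportin, and the summed signal of 19 macrophage markers was 61.1, 88.8 and 87.2 in the saline arrays and 110, 125 and 106 in the rhTM arrays. The brightest gene of the list, the integrin gene Itgam, which neutrophils also express, set the groups apart, since without it the sum was 37.2, 63.1 and 41.0 in the saline arrays and 47.9, 67.3 and 57.3 in the rhTM arrays and overlapped. Over all tested genes, limma called 2.75% higher and 2.41% lower with rhTM. All 19 macrophage markers were well above background on at least 1 array, and of the 18 tested, 11 were higher and 7 lower with rhTM. Limma called 1 of them higher, the fractalkine receptor gene Cx3cr1 (adjusted p = 0.0244, and 0.0549 in the slide-blocked fit). It was tested through the rhTM group, where it was high, and its probe was above background on 1 of 3 saline arrays, so its difference depended on the background correction (4.40, and 2.17 with normexp). The call was lost without saline 1, saline 2, rhTM 1 or rhTM 2 in turn (adjusted p up to 0.137). The part of macrophages in the Slc40a1 values was not tested.

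Hamp encodes hepcidin, which is made mainly by the liver. Its probe (NM_032541) read -5.24, -4.54 and -4.89 in the saline arrays and -7.40, -7.03 and -3.18 in the rhTM arrays. It was well above background on saline 2 and rhTM 3 alone, so no fold is given, and Hamp could not be tested at this signal. Of 15 hepatocyte markers, Alb, Apoa1, Apob, Fgb and Cps1 were well above background on no array. The summed signal of the list was 6.21 to 6.69 in the saline arrays and 5.16 to 5.96 in the rhTM arrays. Yet of the 5 tested markers 4 were higher and 1 lower with rhTM, with a median of 0.55. The lower gene, Ahsg, named after its values were seen, read 2.06, 1.89 and 1.72 with saline and -0.19, 0.08 and 1.25 with rhTM. Its difference was -1.51 (limma adjusted p = 0.0714).

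The Hamp promoter is shown because regulators of hepcidin are described further on. It lies at chr7:30944030-30944279 on the minus strand in RefSeq's table of GRCm38.p6 and covers the 250 bases before the start. Capitals mark a GGCGCC that begins 109 bases before the start and a match to TTCNNNGAA, the palindrome of STAT factors, that begins 97 bases before it.
Hamp: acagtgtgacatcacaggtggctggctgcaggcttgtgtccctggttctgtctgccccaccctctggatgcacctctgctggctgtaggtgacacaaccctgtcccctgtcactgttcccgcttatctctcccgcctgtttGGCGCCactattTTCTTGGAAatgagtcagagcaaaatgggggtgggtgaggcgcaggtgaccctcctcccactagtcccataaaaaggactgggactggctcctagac
TTCNNNGAA was found in 7.02% of the 32851 windows and, among the 9 windows of iron genes, in 1, that of Hamp. GGCGCC was found in 2 of the 9, those of Hamp and Tfrc.

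Cp encodes ceruloplasmin, the copper ferroxidase that loads exported iron onto transferrin and is also an acute-phase protein. Its main probe (NM_007752) read 5.21, 4.76 and 4.67 in the saline arrays and 2.22, 2.06 and 3.80 in the rhTM arrays. Every rhTM heart was below every saline heart, with rhTM 3 nearest to them. The mean was 4.88 ± 0.29 (SD, n = 3) with saline and 2.70 ± 0.96 (SD, n = 3) with rhTM, a 4.54-fold lower signal. The difference was -2.18 ± 0.48 (95% interval -3.33 to -1.03) with an unadjusted p of 0.00308 and an adjusted p of 0.0528 in limma, above the threshold of 0.05. It was larger in size than that of all but 2.80% of tested genes, and 0.912% of tested genes had a more negative one.

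The single arrays moved this value across the threshold. Without rhTM 3 the Cp difference was -2.74 (limma adjusted p = 0.0183), and without saline 3 it was -2.29 (limma adjusted p = 0.0276). Without rhTM 1 or rhTM 2 it was -1.95 and -1.86, with limma adjusted p-values of 0.210 and 0.216. With the slide as a block it was -1.98 ± 0.71 (limma adjusted p = 0.139), and rhTM 3 minus saline 3 was -0.87. With the mouse number as a block the limma adjusted p was 0.0659. Over all tested genes limma called 382 higher and 512 lower without rhTM 3, and 3007 higher and 2808 lower without saline 3. Without rhTM 1 it called 0 in either direction, and without rhTM 2 it called 2 higher and 0 lower.

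A second probe for the same Cp transcript read 1.65, 1.51 and 1.51 in the saline arrays and -0.37, -0.50 and 0.79 in the rhTM arrays. Here too the groups did not overlap and rhTM 3 was the highest rhTM array. The difference was -1.58 ± 0.36 (limma adjusted p = 0.0618 over all probes) and -1.54 with the slide as a block.

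Probes for other Cp transcripts differed less. The probe for NM_001276250 read 1.34, 0.96 and 0.31 in the saline arrays and 0.52, 0.36 and 0.42 in the rhTM arrays. Its difference was -0.44 ± 0.29 (limma adjusted p = 0.344 over all probes) and 0.13 with the slide as a block. The probe for NM_001276248 read -0.77, -0.83 and -1.15 in the saline arrays and -0.90, -1.15 and -0.98 in the rhTM arrays, with a difference of -0.09 ± 0.20 (limma adjusted p = 0.786 over all probes). Both sets of values overlapped between groups. With all probes averaged the Cp difference was -1.07 (limma adjusted p = 0.0760). Ceruloplasmin exists in a secreted form and in a form anchored to the cell membrane, and which form each probe detects was not determined.

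**Figure D2:**
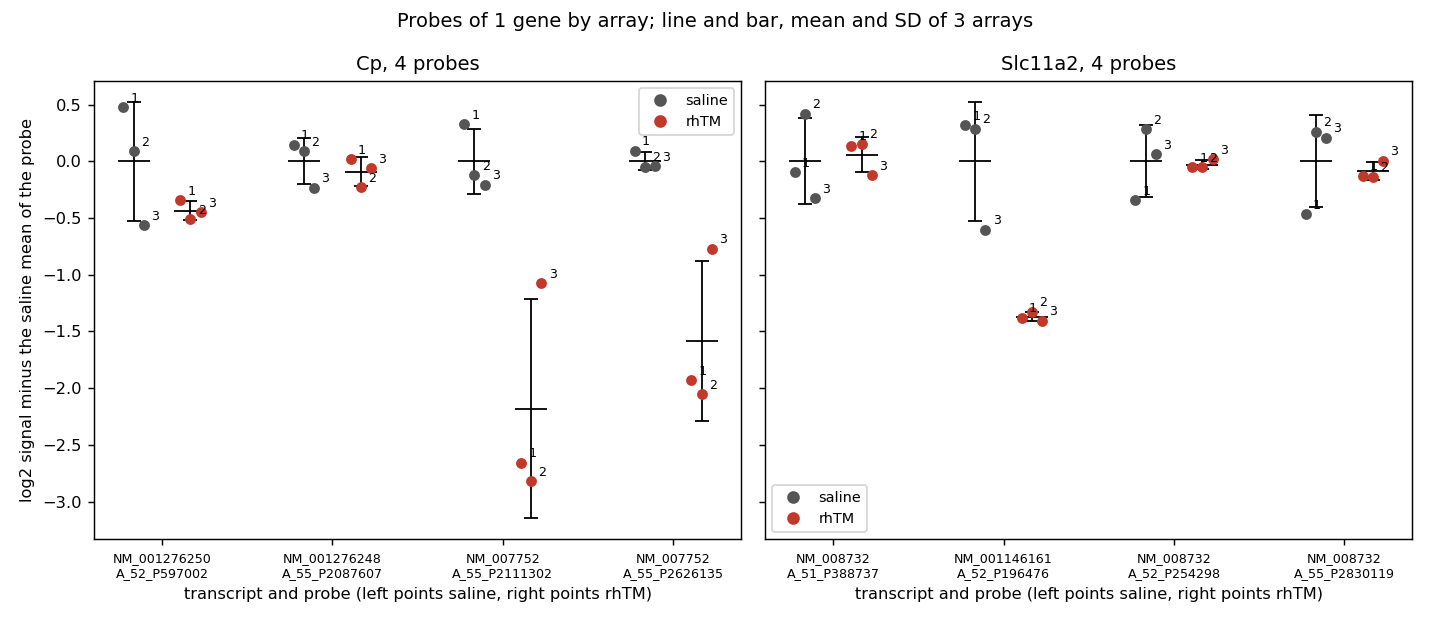
Log2 signal minus the saline mean of the probe (vertical axis) for the 4 probes of Cp and the 4 probes of Slc11a2, with 1 point per array, left saline and right rhTM, and line and bar for mean and SD. The rhTM points lie below the saline points on both NM_007752 probes of Cp and on the NM_001146161 probe of Slc11a2, and overlap them on the other 5 probes.

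The upstream stretch of Cp is shown because Cp led the differences. In RefSeq's table of GRCm38.p6 it lies at chr3:19956804-19956932 on the plus strand, begins 250 bases before the first Cp start in the promoter table and runs for 129 bases, up to the first base annotated as Cp. None of the motifs named so far occurred in the Cp windows, nor did TGACNNNGC, the core of the antioxidant response element, which 10.2% of all windows hold, so no letter is in capitals.
Cp: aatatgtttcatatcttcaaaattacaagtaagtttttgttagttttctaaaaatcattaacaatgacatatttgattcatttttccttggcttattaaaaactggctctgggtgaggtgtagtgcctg

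The pattern of Cp over the 6 arrays was most like those of Slc6a12, a betaine and GABA transporter (Pearson r = 0.998), Rhoj, a small GTPase of endothelial cells (r = 0.996), and Ripk3, a kinase of necroptosis (r = 0.996). These are descriptions over 6 arrays that share the contrast between groups. Slc6a12, whose probe was above background on 1 of 3 rhTM arrays, was called lower by limma (adjusted p = 0.0430), a call lost in the slide-blocked fit (adjusted p = 0.109) and with the mouse number as a block (adjusted p = 0.0554). The other tested iron genes correlated with Cp at -0.63 (Ireb2) to 0.29 (Slc25a37). The neutrophil list had a summed signal over 16 genes of 592, 601 and 1450 in the saline arrays and 128, 121 and 696 in the rhTM arrays. In both, rhTM 3 was the highest rhTM array, but the neutrophil sum was highest in saline 3, the lowest saline array for Cp, and in rhTM 3 it exceeded saline 1 and 2. Without Lcn2, the brightest gene, the sum was 139, 223 and 1087 in the saline arrays and 90.2 to 503 in the rhTM arrays. Of 15 tested neutrophil markers, 13 were lower with rhTM. Limma called 1 of them, Cd177, where 2.41% of all tested genes were called lower. Cd177 was at least 2.70-fold lower (limma adjusted p = 0.0212), as no rhTM array had its probe clearly above background. It was tested through the saline group, where it was high. The call was lost without saline 1, saline 2, rhTM 1 or rhTM 2 in turn (adjusted p up to 0.137). All 16 genes of that list were well above background on at least 1 array. The part of neutrophils in the Cp values was not tested.

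Ireb2 encodes IRP2, which binds iron-responsive elements when iron is scarce. It read 0.86, 0.36 and 0.95 in the saline arrays and 1.17, 1.03 and 0.83 in the rhTM arrays (NM_022655). The ranges overlapped through rhTM 3. The difference was 0.28 ± 0.23 (limma adjusted p = 0.416, 95% interval -0.26 to 0.83). It was 0.10 without saline 2 and 0.06 with the slide as a block.

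Over all 19 tested probes of the iron genes, limma called 0, where 3.56% of all tested probes were called, and 3 had an unadjusted p under 0.05 against 28.8% of all probes. The groups did not overlap for 4 of the 19, against 34.1% of all probes. These 4 were the pair of NM_007752 probes of Cp, the NM_001146161 probe of Slc11a2 and the dimmer Ftl1 probe, and all were lower with rhTM. Probes of 1 gene share their RNA and are not replicates.

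**Figure D3:**
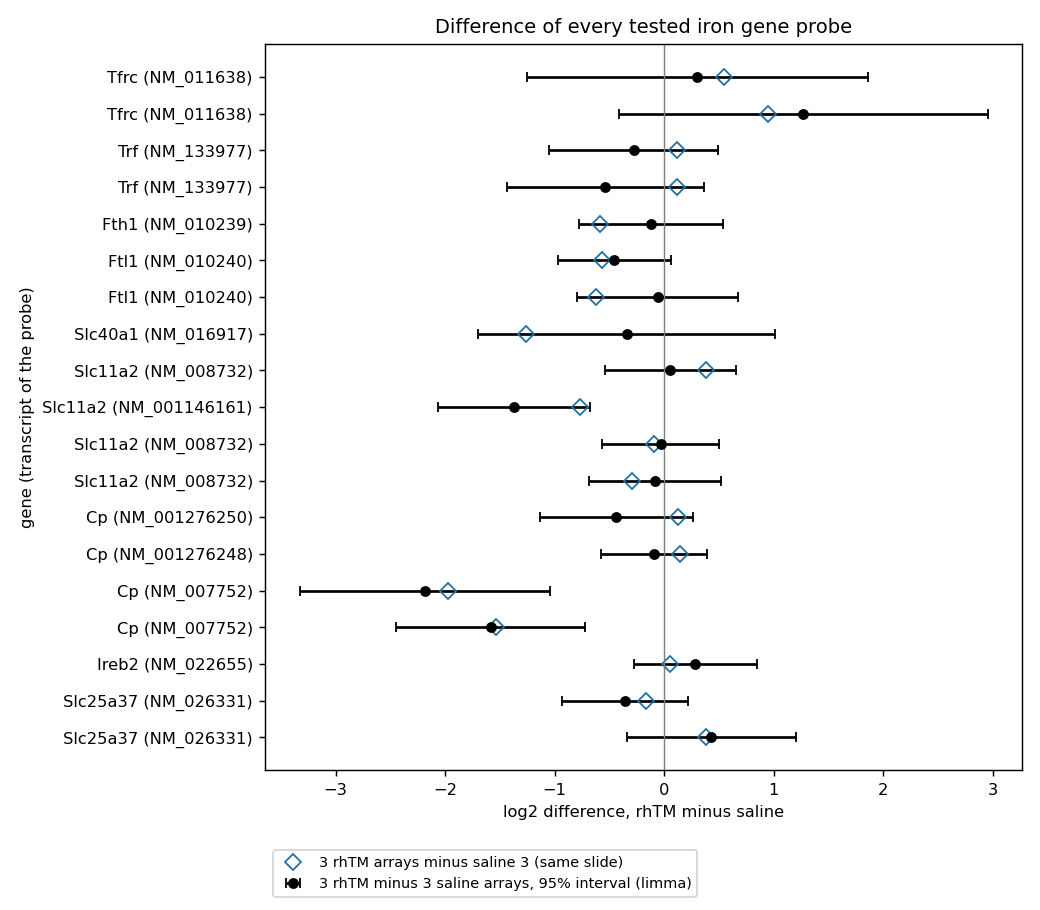
Difference in log2 signal, rhTM minus saline (horizontal axis), for the 19 tested probes of the iron genes, as limma estimates with 95% intervals from 3 against 3 arrays (black) and as the 3 rhTM arrays minus saline 3, which shared their slide (blue diamonds). The intervals of 3 probes, both NM_007752 probes of Cp and the NM_001146161 probe of Slc11a2, lie wholly below 0.

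Further genes of iron handling were read from 9 lists that hold 120 genes, 106 of them tested. Of these 106, limma called 2 higher and 4 lower with rhTM, which is 5.66% in all against 5.17% of all tested genes (2.75% higher and 2.41% lower), and the median difference was -0.17. With the slide as a block 7 were called, 4 of which were also called without it, and with the mouse number as a block 8 were. The calls changed when single arrays were left out. Without saline 1, saline 2, rhTM 1 or rhTM 2, in turn, 0 of the 6 were called. Without saline 3 all 6 were among 38 called, and without rhTM 3, 5 of them, without Slc39a14, were among 10. Over all tested genes limma called 3007 higher and 2808 lower without saline 3, and 382 higher and 512 lower without rhTM 3. With no filter on dim probes Uros alone of the 6 was called, and with normexp Slc39a14 and Atoh8 were not.

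Iron import and release from endosomes was represented by 13 tested genes. Of these, 1 fell, 0 rose and 12 did not pass, with 11 of the 13 differences below 0. Slc39a14, the zinc and iron importer ZIP14, read 2.67, 2.72 and 3.45 in the saline arrays and 1.56, 1.50 and 1.88 in the rhTM arrays, and fell by 1.30 ± 0.27 on the log2 scale (limma adjusted p = 0.0478). No rhTM heart reached the saline range, and in the slide-blocked fit its difference was -1.81 (adjusted p = 0.0262). The call was lost with normexp (adjusted p = 0.0610), with arrays centred on the median (0.0589), with the mean of all probes of each gene (0.0504) and with no filter on dim probes (0.0988). Steap4, a metalloreductase, differed by -1.35 ± 0.33 (limma adjusted p = 0.0642). Steap1, another metalloreductase, chosen here after its values were seen, was called with the mouse number as a block (adjusted p = 0.0390, against 0.0979 without it), with its probe above background on 1 of 3 rhTM arrays. Tfr2, the second transferrin receptor, was above background on 1 array of each group and was not tested. The median of the list was -0.34, and 0.14 with the slide as a block.

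Storage and ferritin turnover was represented by 7 tested genes, of which 1 fell, 0 rose and 6 did not pass. Pcbp3 belongs to the poly(rC)-binding proteins, a family with members that deliver iron to ferritin. Pcbp3 read -0.10, -0.14 and -0.40 in the saline arrays and -1.44, -1.42 and -1.43 in the rhTM arrays. It fell by 1.22 ± 0.18 (limma adjusted p = 0.0268) and the groups were well apart, while its other probe gave -0.79. Ncoa4, the receptor that takes ferritin to lysosomes, differed by 0.24 (limma adjusted p = 0.438). In the export list of 4 tested genes none passed, and 1 did in the slide-blocked fit. This was the heme transporter gene Flvcr2, named after its values were seen, at 0.64 (limma adjusted p = 0.528) and at 2.27 in that fit (adjusted p = 0.0211), where its only control, saline 3, was the lowest array at -3.14. Heph, the membrane ferroxidase related to ceruloplasmin, differed by 0.11 (limma adjusted p = 0.675), with the sign turned under normexp and under quantile normalisation. Flvcr1, a heme exporter, differed by 0.59 ± 0.45 (limma adjusted p = 0.390), and by -0.46 with the slide as a block.

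All 8 tested genes of the list of post-transcriptional regulators had differences below 0, with a median of -0.45. By limma 0 of them passed, with 1 at an unadjusted p under 0.05, against 30.7% of all tested genes. The list also holds Cdc42bpa, which stands again among the other transcripts with iron-responsive elements. With the slide as a block Aco1, Ciao1 and Ciao3 were above 0 (0.11, 0.18 and 0.53), the rest stayed below, and the median was -0.51. Ciao1, Ciao3 and Cdc42bpa were named after their values were seen. With the mouse number as a block 1 passed, Zc3h12a, an RNase that cuts the transferrin receptor mRNA, at -1.43 (adjusted p = 0.0391, against 0.194 without the block), also named after its values were seen. Aco1, which encodes the partner protein IRP1, read 2.25, 2.26 and 1.04 in the saline arrays and 1.19, 1.36 and 0.92 in the rhTM arrays. Saline 3 lay among the rhTM arrays, the difference was -0.70 ± 0.37 (limma adjusted p = 0.242), and with the slide as a block it was 0.11. Without saline 3 it was -1.10 (limma adjusted p = 0.00861), in a fit that called 3007 genes higher and 2808 lower. Fbxl5, the iron sensor that marks IRP2 for degradation, differed by -0.31 (limma adjusted p = 0.637), and by 0.13 without saline 3.

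The list of hepcidin control held 24 tested genes, of which 2 fell, 0 rose and 22 did not pass, with 18 of the differences below 0 and a median of -0.21. Stat3, which carries the interleukin-6 signal to the hepcidin gene in liver, read 4.86, 4.67 and 4.69 in the saline arrays and 3.09, 2.86 and 3.44 in the rhTM arrays. It fell by 1.61 ± 0.21 (limma adjusted p = 0.0248), by 1.56 in the slide-blocked fit (adjusted p = 0.0409), and its other probe gave -1.38. Atoh8, a transcription factor that raises hepcidin, read -0.84, -1.08 and -1.31 in the saline arrays and -2.85, -2.25 and -2.10 in the rhTM arrays. It fell by 1.32 ± 0.26 (limma adjusted p = 0.0447), a call that was lost in the slide-blocked fit (adjusted p = 0.104) and with the mouse number as a block (adjusted p = 0.0682). No rhTM heart reached the saline range for either gene.

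Il6, the cytokine interleukin-6, differed by -4.72 ± 1.60 (limma adjusted p = 0.114), with its probe above background on 2 of 3 rhTM arrays, and the adjusted p was 0.0390 with the mouse number as a block. In the slide-blocked fit 3 genes of this list were called, Stat3, Gdf15 and the activin subunit gene Inhbb, which was named after its values were seen (-2.60, and -4.01 in that fit with an adjusted p of 0.0364). Gdf15, a stress cytokine, differed by -0.88 (limma adjusted p = 0.545) and by -3.14 in the slide-blocked fit (adjusted p = 0.0405). It was at 3.17 in saline 3 and at -0.26 and -0.18 in saline 1 and 2, and without saline 3 the difference was 0.25. Bmp6, the ligand that tells the liver of iron stores, differed by -0.18 (limma adjusted p = 0.808) and by 0.80 with the slide as a block. Hamp2, the second hepcidin gene of mice, was above background on 2 rhTM arrays and was not tested.

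Of 10 tested scavengers of heme, hemoglobin and siderophore-bound iron, 0 passed by limma, against 5.17% of all tested genes. An unadjusted p under 0.05 was found for 4 of the 10, against 30.7% of all tested genes. Of the differences 8 were below 0, with a median of -0.83. Lcn2, the siderophore binder lipocalin-2, which is also a neutrophil granule protein and stands in the neutrophil list, read 8.82, 8.56 and 8.50 in the saline arrays and 4.38, 4.92 and 7.59 in the rhTM arrays. The groups did not overlap, and rhTM 3 was nearest to the saline arrays. The difference was -3.00 ± 0.79 (limma adjusted p = 0.0753), and -3.98 without rhTM 3 (limma adjusted p = 0.0130). With other arrays left out in turn the limma adjusted p reached 0.261. With the slide as a block the Lcn2 difference was -2.87. Hp, the hemoglobin binder haptoglobin, differed by -3.74 ± 1.52 (limma adjusted p = 0.156), and by -5.62 without rhTM 3 (limma adjusted p = 0.0183). For Hp the limma adjusted p reached 0.382 with other arrays left out in turn, and the difference with the slide as a block was -4.54. Hmox1, the heme oxygenase that frees iron from heme, read 2.20, 2.78 and 4.23 in the saline arrays and 1.00, 1.37 and 3.60 in the rhTM arrays, and the groups overlapped through rhTM 3. Its difference was -1.08 ± 0.80 (limma adjusted p = 0.381). Cd163, the macrophage receptor for haptoglobin bound to hemoglobin, differed by -0.26 (limma adjusted p = 0.643). Hpx and Ltf, which bind heme and iron, were above background on too few arrays to be tested.

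The mitochondrial list, of iron carriers and iron-sulfur cluster assembly, held 23 tested genes, of which 1 rose, 0 fell and 22 did not pass, and 16 of the differences were above 0 with a median of 0.30. Hscb, a co-chaperone that hands on iron-sulfur clusters, read 1.52, 1.67 and 1.98 in the saline arrays and 2.87, 2.93 and 3.36 in the rhTM arrays. It rose by 1.33 ± 0.23 (limma adjusted p = 0.0366), with every rhTM heart above the saline range, while with the slide as a block it was 1.07 (adjusted p = 0.0690) and its other probe gave 0.80. Slc25a28, the second mitoferrin, differed by -0.66 ± 0.30 (limma adjusted p = 0.186), and by -0.03 with the slide as a block. Without saline 3 the Slc25a28 difference was -0.98 (limma adjusted p = 0.00612), in a fit that called 3007 genes higher and 2808 lower. The summed cardiomyocyte signal given above was also higher in rhTM 1 and 2 than in any saline array, and its part in these values was not tested. Of the 17 cardiomyocyte markers, limma called 1 higher, where 2.75% of all tested genes were called higher. This was Pln, which encodes phospholamban, at 1.35 ± 0.28 (limma adjusted p = 0.0478). The call was lost without saline 1, saline 2 or any of the rhTM arrays in turn (limma adjusted p up to 0.216).

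Of 12 tested genes of heme synthesis, 1 rose, 0 fell and 11 did not pass, with a median of 0.05. Uros, uroporphyrinogen synthase, read 1.43, 1.97 and 1.63 in the saline arrays and 3.48, 3.42 and 3.22 in the rhTM arrays. It rose by 1.69 ± 0.21 (limma adjusted p = 0.0212) and by 1.74 in the slide-blocked fit (adjusted p = 0.0324), while its other probes gave 0.14 and 1.05. Alas2, the first enzyme of the pathway in red cells, read -0.39, 1.07 and -0.22 in the saline arrays and 0.04, 0.17 and -2.19 in the rhTM arrays. Its lowest array was rhTM 3, as for the erythroid sum and the main Tfrc probe, though not the other Tfrc probe. The Alas2 difference was -0.82 (limma adjusted p = 0.458), or -0.05 without rhTM 3. Hba-a1, a hemoglobin gene of the erythroid list, differed by -0.38 (limma adjusted p = 0.636). Of 9 tested genes with other iron-responsive elements, 0 passed by limma, and the median was -0.03. An unadjusted p under 0.05 was found for 3 of the 9, against 30.7% of all tested genes.

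**Figure D4:**
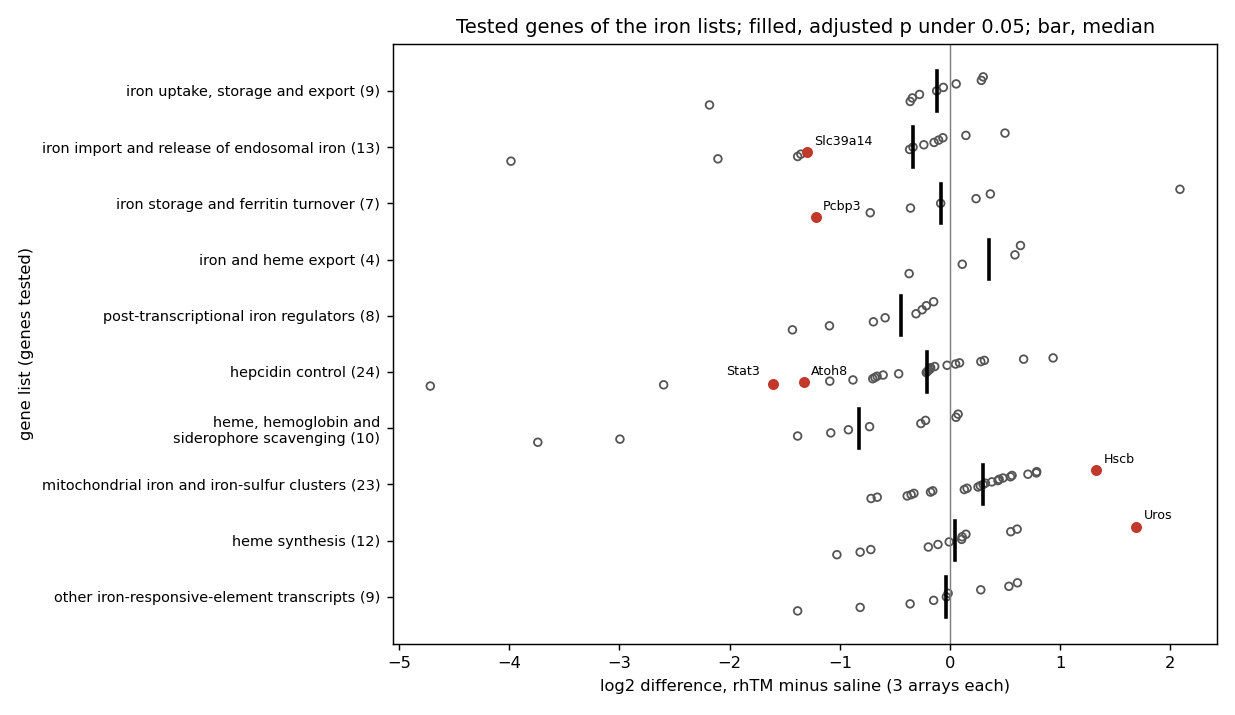
Difference in log2 signal, rhTM minus saline (horizontal axis), of each tested gene in the 9 iron lists and the 10 iron genes (rows), with 1 point per gene, a bar at the median of each list, and filled, named points for genes with a limma adjusted p under 0.05. The 6 called genes are Slc39a14, Pcbp3, Stat3 and Atoh8 below 0 and Hscb and Uros above 0.

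**Figure D5:**
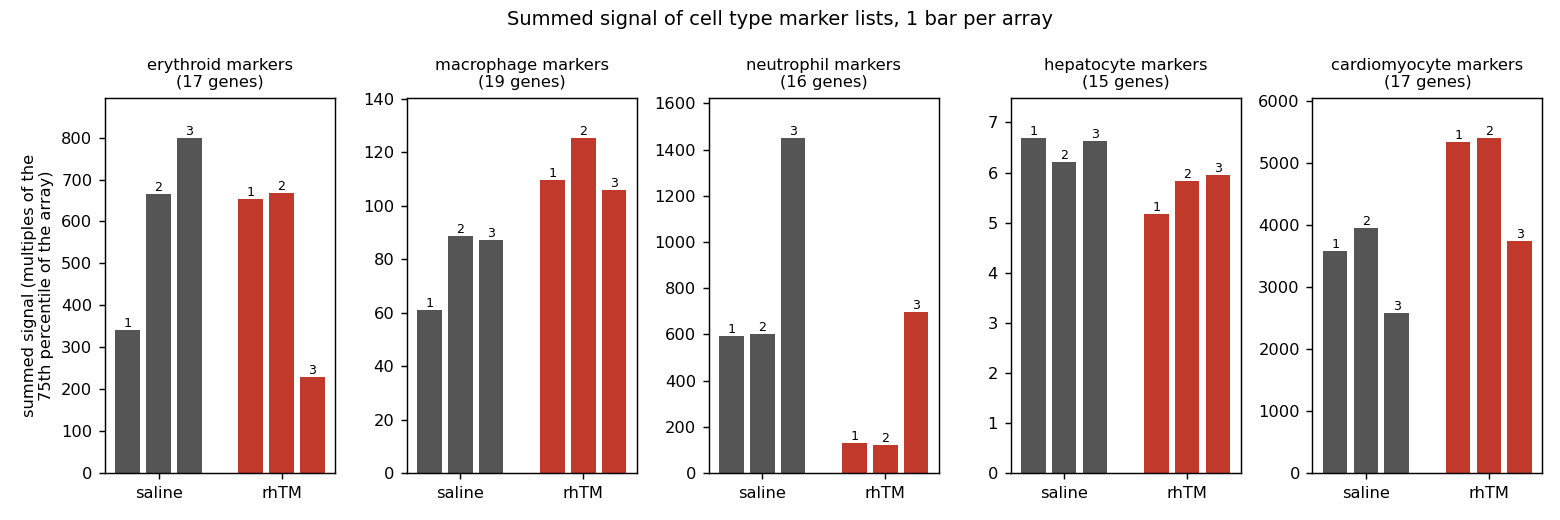
Summed signal of the erythroid, macrophage, neutrophil, hepatocyte and cardiomyocyte marker lists, as multiples of the 75th percentile of the array. There is 1 bar per array numbered by mouse, grey for saline and red for rhTM. Lists of endothelial, fibroblast and adipocyte markers were also read and are not drawn. The neutrophil sum was 592 to 1450 in the saline arrays and 121 to 696 in the rhTM arrays, and the erythroid sum was lowest in rhTM 3 at 228.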

How the data were processed

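Agilent 1-colour scanner files of 6 arrays, 1 per mouse, were used. They hold spot intensity as the authors deposited it, background-corrected but not normalised between arrays, and per the file headers come from Feature Extraction 10.7.3.1 with a grid of mm9 (the submitters' processing notes name Agilent Feature Extraction 9.1). The authors' value table, also deposited, is in log2 units with a baseline per probe that differed between the slides (SD of the difference 0.825), and it served only as an alternative.

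Processed signals were put on the log2 scale and the array's 75th percentile was subtracted. Of 56605 probes besides controls, 368 had outlier flags and were dropped, spots of 1 probe were averaged, and 32789 probes were named through their accession in RefSeq's table of GRCm38.p6, whose promoter windows also gave the sequences. For each gene the probe of highest mean signal over the 6 arrays was its main probe. Groups, taken from the sample titles, were compared by lmFit and eBayes of limma 3.58.1 (R 4.3.3, two-sided), with Benjamini-Hochberg adjustment and a threshold of 0.05, once over genes and once over probes. The script was tested on simulated data. The number of arrays limits the precision.

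The iron genes, lists and named genes were chosen with earlier results of these data known. Named genes are the 10 iron genes, up to 3 called genes of each list by p, 22 further genes of iron handling called or not, and the 3 genes most like the leading iron gene. Further genes are marked as named after their values were seen. Alternatives changed background correction, normalisation, dim-probe filter, probes per gene, source of values, slide, replicate number, array weights and single arrays. As a check of pairing, arrays with the same number were compared by their departure from the group mean, with correlations of 0.319, 0.235 and 0.372 over genes (no independent replicates). The numbers come from the sample titles, which name no shared litter or day, and saline 1 and rhTM 2 correlated at 0.314. The replicate number as a block is therefore given only for some counts, for Cp and for named genes whose call it changed. With that block 3 macrophage and 2 neutrophil markers were called, where 4.07% of all tested genes were. Without it 1 was called in each list, where 5.17% of all tested genes were.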

Additional observations from a re-analysis of the deposited data

How the results depend on the processing

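Over all genes, 760 were called in limma (405 higher and 355 lower), and the count moved to 412 (200 and 212) with normexp on spot medians, an alternative chosen after seeing the data, to 151 (132 and 19) with no filter on dim probes, to 4519 (2205 and 2314) with the deposited value table and to 9244 (4663 and 4581) with array weights. Calls that were higher made up 53.3% of the main count, 64.3% with arrays centred on the median of the genes tested, 66.2% with the slide as a block, 59.6% with the replicate block, 87.4% with no filter, 45.7% with quantile normalisation, 46.2% with the filter on all 6 arrays and 42.7% without rhTM 3. Leaving out single arrays gave 0 to 5815 calls (0 to 3007 higher, 0 to 2808 lower). Of the 9 iron genes, 0 were called in the main fit, 1 with normexp, with the filter on all 6 arrays and with the deposited table, 2 with array weights, and 0 to 1 without single arrays. Of the iron lists, with 106 genes tested in the main fit, 6 genes were called. The count was 1 with no filter, 39 with the deposited table, 63 with array weights and 0 to 38 without single arrays. Over all 14701 genes the same fits called 4519 with the deposited table, 9244 with array weights and 0 to 5815 without single arrays.

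Cp passed the threshold with normexp (-2.12, limma adjusted p = 0.0434), with the filter on all 6 arrays (-2.18, 0.0497), with the deposited table (-2.87, 0.0145) and with array weights (-2.89, 3e-04). Its range without single arrays was -2.74 to -1.86, with adjusted p from 0.0183 to 0.216, and its sign was the same under every alternative run. Tfrc passed with array weights (1.07, limma adjusted p = 0.0486), a fit that called 4663 genes higher and 4581 lower. Signs turned for Trf with the deposited table (0.25) and the slide as a block (0.12), for Slc25a37 with the deposited table (0.17), for Fth1 with array weights (0.046), for Ftl1 with centring (0.020) and array weights (0.12), and for Slc11a2 with the mean of all probes (-0.36). Without single arrays, Tfrc ranged from -0.15 to 1.05, Fth1 from -0.32 to 0.11, Ftl1 from -0.23 to 0.22, Slc40a1 from -1.03 to 0.12 and Slc11a2 from -0.11 to 0.27.

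Among the other named genes, signs turned for Heph with normexp (-0.017) and quantile normalisation (-0.046), for Ncoa4 with the mean of all probes (-0.044), and with the deposited table for Alas2 (0.58), Bmp6 (0.82), Flvcr1 (-0.17) and Hba-a1 (0.074). They also turned with the slide as a block for Aco1 (0.11), Bmp6 (0.80) and Flvcr1 (-0.46), and with array weights for Cd163 (0.0046) and Hba-a1 (0.42). Without single arrays Bmp6 ranged from -0.66 to 0.11, Cd163 from -0.53 to 0.039, Fbxl5 from -0.54 to 0.13, Gdf15 from -1.46 to 0.25 and Hba-a1 from -0.74 to 0.13. With the replicate block Atoh8 (adjusted p = 0.0682) lost its call and Il6 (adjusted p = 0.0390) gained one, and Cp stayed above the threshold (adjusted p = 0.0659). Slc6a12 also lost its call (adjusted p = 0.0554), and of the list genes named for it Steap1 and Zc3h12a gained one (adjusted p = 0.0390 and 0.0391). The causes of these shifts were not tested.

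Genes near background, such as Hamp, could not be tested at this signal. The slide-blocked values rest on 1 saline array. The p-values from 3 against 3 arrays cover only the spread between these arrays, which in the saline group mixes mice with slides and scans.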
